A study of Homo sapiens with 6 samples.

Results

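Loss of the transcription factor gene ETV4 was examined in Ishikawa cells, an estrogen-responsive line from an endometrial adenocarcinoma, by setting 4 RNA-seq libraries of knockout clones against 2 libraries of the parental line. These are all 6 libraries of the study. They were chosen by label alone: each line, the unedited parental line, ETV4 knockout clone 1 and ETV4 knockout clone 2, gave 1 library after vehicle (0.1% DMSO) and 1 after 10 nM E2 (17β-estradiol, the main estrogen). All had been grown in hormone-depleted medium, with charcoal-treated serum and no phenol red, before treatment. The protocol text puts the treatment at 8 h and the sample characteristics at 1 h. Each treatment thus had n = 2 knockout clones and 1 parental library, so a difference of the knockout cannot be told apart from a difference between this parental culture and lines grown from single clones. The libraries of 1 line are not separate lines, and p-values measure the spread between these 6 libraries.

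ETV4 belongs to the PEA3 group of ETS transcription factors, with ETV1 and ETV5. These proteins bind DNA through a motif with the core GGAA, and their activity rises with signalling through RAS and ERK. In endometrial cancer cells ETS motifs are common beside sites bound by the estrogen receptor, and PEA3 factors are known in other epithelia as regulators of migration and of branching growth.

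The libraries held 28037392 to 36829479 counts, and 15611 of 26364 genes passed a filter on low counts. The parental DMSO library stood apart, most clearly by transcript length. In each DMSO difference between a clone and the parental line, genes with more GC and longer transcripts were higher in the clone. Spearman's rho across 11786 genes was 0.20 and 0.33 with GC content and 0.39 and 0.40 with length for clones 1 and 2. In E2 the values were -0.34 and -0.08 with GC content and 0.07 and 0.06 with length. A GC trend was thus also present for clone 1 in E2, in the opposite direction. For most gene groups the median difference from the parental line is therefore given by treatment too, for clone 1 and then clone 2. The epithelial markers EPCAM, CDH1, KRT8, KRT18, KRT19, CLDN4 and PAX8 were all tested, and together reached 2413 to 3321 CPM (the count scaled to library size after TMM) in every library. Endothelial markers summed to 1.65 to 4.55 CPM and leukocyte markers to 3.23 to 5.61 CPM.

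The targeted gene was read first, and it separated the 4 clone libraries from the 2 parental ones. The parental line held ETV4 at 19.7 CPM with DMSO and 28.4 CPM with E2. It was at 3.41 and 2.95 CPM in clone 1, and at 2.42 and 2.77 CPM in clone 2. The clones kept 17.3% and 12.3% of the parental level in DMSO, and 10.4% and 9.74% in E2. ETV4 fell by 3.04 on the log2 scale (SE 0.21), with an adjusted p of 0.00868 by the quasi-likelihood F test in edgeR, the source of all such p-values here unless another tool is named. The labels do not say which stretch of the gene was edited, so transcript that remains says nothing about the protein. Its relatives did not pass the test. ETV5 stood at 54.8 and 57.7 CPM in the parental line and at 43.5 to 51.7 CPM in the clones, lower in each (log2 difference -0.24, SE 0.13). ETV1 differed in sign between the clones, at 9.91 and 8.23 CPM in clone 1 and 4.75 and 3.18 CPM in clone 2 against 7.60 and 4.94 CPM. Of 21 other ETS genes tested, none was called, beside 0.327% of all genes tested. Their median log2 difference was 0.10 against 0.01 over all genes tested.

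With treatment in the model, 51 of 15611 genes (0.327%) had an adjusted p below 0.05 (quasi-likelihood F test in edgeR, Benjamini-Hochberg over all genes tested). They were 23 higher in the clones (0.147%) and 28 lower (0.179%), with adjusted p-values from 5.01e-05 for EPHA5 to 0.0498. All 51 differed in the same direction in both clones under both treatments, as did 34.5% of the 12367 genes averaging at least 2 CPM. The fitted difference was at least 2-fold for 50. The clone and parental ranges did not overlap for 49 of them, against 16.4% of all genes tested. The exceptions were G0S2 and MLPH, whose levels were far higher in E2 than in DMSO in every line. In 45 of the 51 the clones lay within 2-fold of each other in both treatments. TUNAR, ALDH3A1, FAM208A, SLC9A3, GJA1 and STC1 differed more than that between the clones in at least 1 treatment. Of the 12367 genes averaging at least 2 CPM, 334 in DMSO and 304 in E2 were at least 2-fold apart between the clones. A call from these 6 libraries already favours genes with such agreement, so these counts are not separate support. The call rests on each parental library: without the parental DMSO library 2 genes passed, and without the parental E2 library 1 gene, EPHA5 in both. Without the DMSO library of clone 1 the count was 13, and without the E2 library of clone 2 it was 6. It was 99 without the DMSO library of clone 2. Leaving out both libraries of a clone gave more calls, in fits with 1 line per genotype and thus no spread between clones. DESeq2 called 451, a fit without the treatment term 15, and a correction for GC content and length 118. With the libraries of each line summed, so that each line counts once, 27 of the 51 passed. The 24 that did not had adjusted p-values of 0.0587 to 0.243 (edgeR): TNNI3, LOC442497, PCDHGB4, HDGFRP3, CDKN1A, ZNF626, SOX6, ID3, SPARC, PCDHB13, FAM171A1, ZNF793, MLPH, MAPK4, AGPAT2, KCNJ3, TUBA8, KIAA1551, HENMT1, ID2, TUBB4A, MAFA, SLC6A17 and SLC29A1. None of the 51 changed direction under any alternative run. The gene lists were chosen with earlier results known, so 1 call in a short list is no sign of enrichment. A short list with no call is also what the share of 0.327% over all genes tested would mostly give.

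A second reading used no test. Each clone library was set against the parental library of the same treatment (log2 CPM with a prior count of 2), giving 4 differences per gene, over the 12367 genes that averaged at least 2 CPM. The 2 clones share the parental library of a treatment. A total of 84 genes (0.679%) were at least 2-fold apart in 1 direction in all 4 differences, 54 higher (0.437%) and 30 lower (0.243%) in the clones. Of these, 39 were among the 44 called genes that averaged at least 2 CPM, 20 higher and 19 lower. The same sign in all 4 was common, at 4268 genes (34.5%), split into 2135 higher (17.3%) and 2133 lower (17.2%). In E2 alone, without the parental DMSO library, both clones exceeded the parental line by at least 2-fold for 84 genes (0.679%) and lay below it by as much for 64 (0.518%). In DMSO alone the counts were 270 higher and 68 lower. Across the 12367 genes the mean differences of the 2 treatments had a Pearson r of 0.44 and a Spearman rho of 0.21. Genes are not independent replicates, and each treatment compares the same lines.

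**Figure D1:**
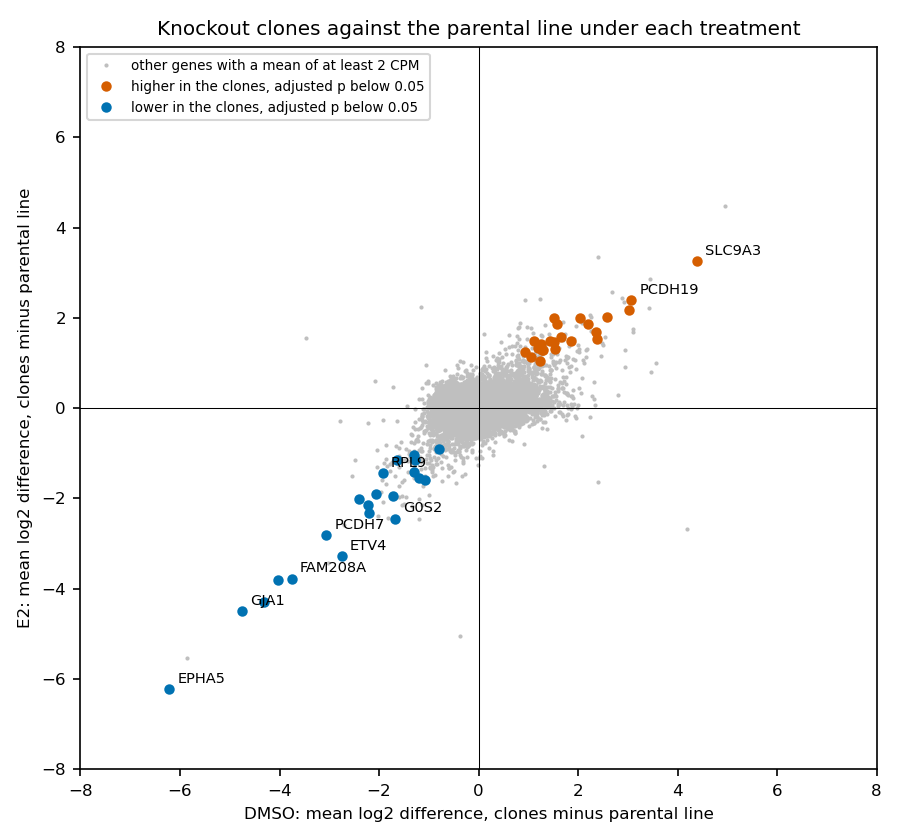
Mean log2 difference of the 2 clones from the parental line in DMSO (horizontal) and in E2 (vertical) for each of the 12367 genes that averaged at least 2 CPM. Coloured points had an adjusted p below 0.05 in the fit of all libraries, and all of them lie at the lower left or the upper right, while the grey cloud is wider in DMSO than in E2.

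**Figure D2:**
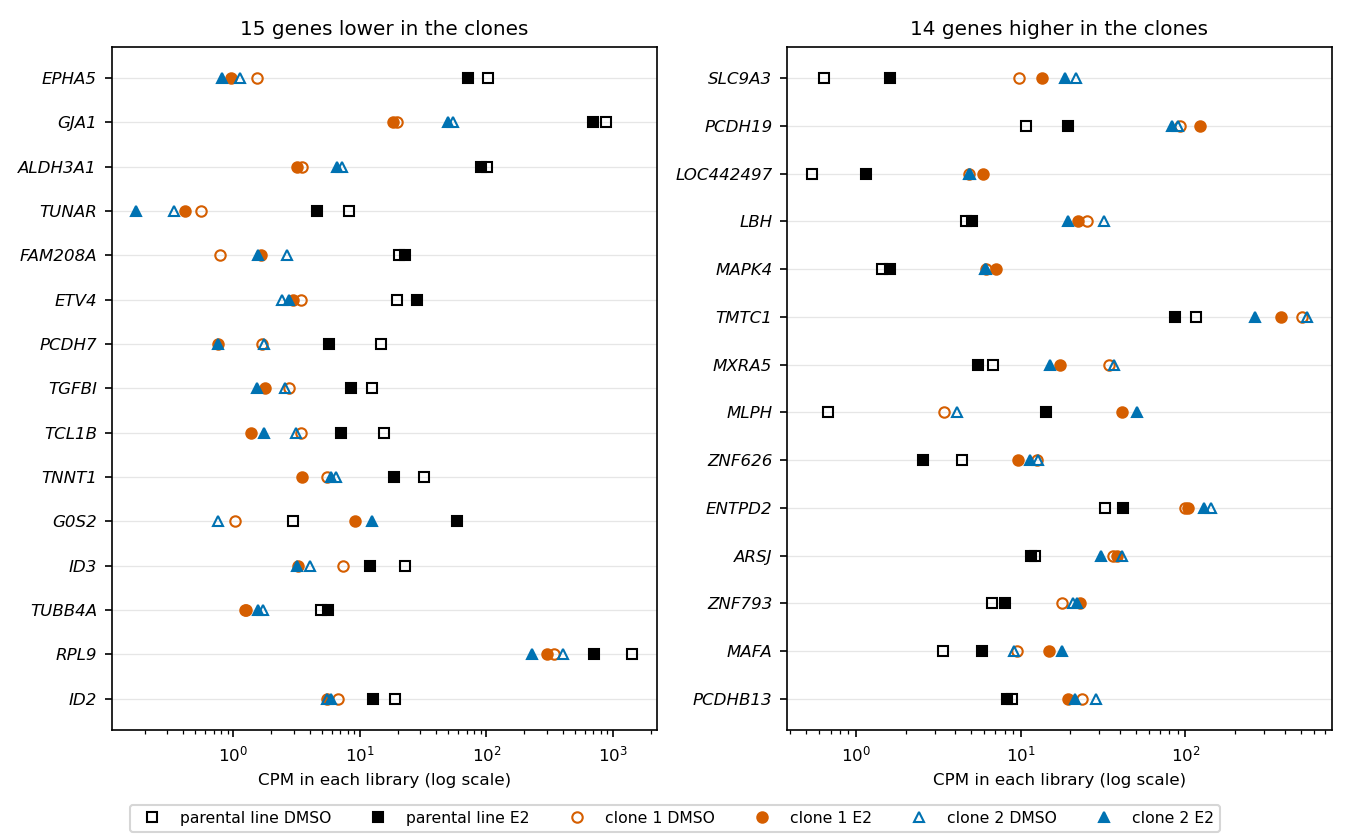
Level in CPM (log scale) of 15 lower and 14 higher genes among those with the largest fitted differences, 1 point per library. Squares are the parental line, circles clone 1 and triangles clone 2, open for DMSO and filled for E2. Both squares lie outside the range of the 4 clone points except for G0S2 and MLPH, which differ between DMSO and E2 in every line.

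The start sites of genes at the extremes of the calls are shown because ETS factors bind many promoters through the GGAA core. Windows of 250 bases before to 50 after the start came from RefSeq (GRCh38.p14), 5′ to 3′ on the gene's strand, with AGGAAG or its reverse complement CTTCCT in capitals. EPHA5 and GJA1 had the largest falls among called genes averaging at least 2 CPM, ID3 represents the bHLH inhibitors, and SLC9A3 had the largest rise among called genes.
EPHA5 (chr4:65670440-65670739, minus strand, 1 of 2 windows): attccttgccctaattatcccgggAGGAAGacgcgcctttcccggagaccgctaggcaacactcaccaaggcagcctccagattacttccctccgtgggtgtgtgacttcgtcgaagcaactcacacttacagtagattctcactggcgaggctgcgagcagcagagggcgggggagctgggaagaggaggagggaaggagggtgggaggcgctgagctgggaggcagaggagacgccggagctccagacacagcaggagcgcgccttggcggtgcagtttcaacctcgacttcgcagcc
GJA1 (chr6:121435396-121435695, plus strand): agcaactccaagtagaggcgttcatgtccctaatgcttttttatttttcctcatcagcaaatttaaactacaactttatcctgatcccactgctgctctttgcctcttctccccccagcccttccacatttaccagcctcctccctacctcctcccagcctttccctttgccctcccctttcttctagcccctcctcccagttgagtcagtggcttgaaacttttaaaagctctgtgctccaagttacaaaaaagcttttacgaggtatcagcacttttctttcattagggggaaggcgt
ID3 (chr1:23559452-23559751, minus strand): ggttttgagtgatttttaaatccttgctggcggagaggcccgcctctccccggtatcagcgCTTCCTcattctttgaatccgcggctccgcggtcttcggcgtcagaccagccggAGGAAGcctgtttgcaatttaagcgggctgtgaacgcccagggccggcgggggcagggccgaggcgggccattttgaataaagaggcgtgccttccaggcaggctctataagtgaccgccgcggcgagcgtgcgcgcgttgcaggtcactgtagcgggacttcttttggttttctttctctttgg
SLC9A3 (chr5:524400-524699, minus strand): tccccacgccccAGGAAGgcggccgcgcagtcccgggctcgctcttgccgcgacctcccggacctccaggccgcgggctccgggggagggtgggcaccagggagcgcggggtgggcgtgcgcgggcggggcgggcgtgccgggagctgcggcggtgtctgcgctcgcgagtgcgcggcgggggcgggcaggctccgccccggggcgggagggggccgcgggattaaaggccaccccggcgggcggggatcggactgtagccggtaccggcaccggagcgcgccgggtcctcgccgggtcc
The window of GJA1 held neither that motif nor CCGGAA, the other ETS motif searched (reverse complement TTCCGG), while that of ID3 held AGGAAG on both strands. Both motifs contain GGAA and cannot match at the same core, since the base before GG differs. Of the 51 called genes, 44 had a window. AGGAAG or its reverse complement was in 9 of 23 lower and 9 of 21 higher genes, against 38.1% of 27305 genes with a window. CCGGAA or its reverse complement was in 2 of 23 lower and 4 of 21 higher genes, against 20.1%. A match is a stretch of letters and not a bound site.

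The steepest loss among genes averaging at least 2 CPM was of a receptor. EPHA5, a receptor tyrosine kinase that binds ephrin-A ligands and guides axons, stood at 103 and 71.1 CPM in the parental line (DMSO and E2). It was left at 1.54 and 0.960 CPM in clone 1 and at 1.13 and 0.820 CPM in clone 2. EPHA5 fell by 6.28 on the log2 scale (SE 0.16), and each of the 4 differences lay between 6.01 and 6.43 in size. Its neighbour EPHA5-AS1, a noncoding RNA named for lying antisense to it, went from 4.98 and 2.19 CPM to at most 0.112 CPM (log2 difference -5.37, SE 0.36). Whether reads were counted by strand is not given in the sources used here, so reads of this pair cannot be told apart. Of the 21 Eph receptors and ephrins tested, 1 rose and 1 fell, against 0.147% and 0.179% of all genes tested. The median was 0.15, with 0.06 and 0.21 in DMSO and 0.07 and 0.05 in E2. The riser was EFNB2, a membrane-bound ligand of EphB receptors, from 25.6 and 18.9 CPM to between 43.7 and 67.6 CPM in the clones (1.28, SE 0.17). EFNB2 did not pass with line as a random replicate block (adjusted p 0.0730, limma-voom). EPHB6 (1.36, SE 0.29) and EPHA3 (-1.34, SE 0.51) had the same sign in all 4 differences without passing.

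Among genes of cell contacts, 1 of 10 connexins and 4 of 52 protocadherins tested were called, against 0.327% of all genes tested. The connexin share rests on 1 gene of a list chosen with earlier results known. GJA1 encodes connexin 43, the most widespread gap junction channel protein. It stood at 886 and 691 CPM in the parental line, at 19.6 and 18.4 CPM in clone 1, and at 54.3 and 49.98 CPM in clone 2. Clone 2 thus kept more of it than clone 1 in both treatments, and both lay far below the parental line. GJA1 fell by 4.46 on the log2 scale (SE 0.49, adjusted p 0.0271, edgeR). No other connexin was called, and the list's median was 0.16, with -0.28 and 0.39 in DMSO and -0.78 and 0.22 in E2. GJA3 was lower in all 4 differences (-0.74, SE 0.58) and GJD3 higher (0.41, SE 0.18), neither past the test. No classical or other cadherin passed among 14 tested, beside 0.327% of all genes tested. Their median was 0.04 (0.23 and 0.21 in DMSO, 0.13 and 0.12 in E2).

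Protocadherins, calcium-dependent adhesion proteins of which many are encoded in tandem clusters and chosen differently from cell to cell in neurons, were mostly higher in the clones. Of 52 tested, 45 had a positive difference, beside 8070 of all 15611 genes, and 3 rose and 1 fell. The median was 1.00 against 0.01 over all genes tested, with 0.59 and 1.32 in DMSO and 0.47 and 0.96 in E2. The GC and length correction left that median at 0.90. The 10 protocadherins tested outside the clusters had a median of 0.36, with 0.02 and 0.12 in DMSO and 0.53 and 0.12 in E2. Of the 7 of them averaging at least 2 CPM, 3 were higher and 3 lower in all 4 differences, beside 17.3% and 17.2% of all genes. PCDH19, which lies outside the clusters, stood at 10.8 and 19.2 CPM in the parental line, at 92.6 and 123.1 CPM in clone 1 and at 89.7 and 82.4 CPM in clone 2. It rose by 2.73 (SE 0.25), and the clone range lay above the parental range. PCDH7, another protocadherin outside the clusters, moved the other way, from 14.7 and 5.67 CPM to 1.67 and 0.754 CPM in clone 1 and 1.74 and 0.752 CPM in clone 2. It fell by 3.01 (SE 0.19), with all 4 differences between 2.81 and 3.09 in size.

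Within the beta cluster all 18 genes tested had a positive difference, with a median of 1.34 (1.24 and 1.48 in DMSO, 0.86 and 1.23 in E2). Summed over the cluster, the parental line held 46.0 CPM with DMSO and 46.2 CPM with E2, and the clones 97.3 to 147 CPM over their 4 libraries. PCDHB13 was the called member, at 8.91 and 8.20 CPM in the parental line, 23.6 and 19.5 CPM in clone 1, and 28.5 and 21.4 CPM in clone 2 (1.43, SE 0.16). It did not pass with the libraries of each line summed (adjusted p 0.0698, edgeR). PCDHB8, PCDHB14 and PCDHB16 were also at least 2-fold higher in all 4 differences without passing. The members were not raised alike in the clones. PCDHB5, chosen after its values were seen, stood at 2.19 and 2.75 CPM in the parental line, at 14.5 and 13.0 CPM in clone 1 and at 0.683 and 0.547 CPM in clone 2. It was thus on opposite sides of the parental level in the clones, in both treatments.

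The gamma cluster had a median of 1.00 over 23 genes tested, 19 of them positive, with 0.49 and 1.39 in DMSO and 0.30 and 1.03 in E2. PCDHGB4 rose from 14.96 and 11.7 CPM to between 30.8 and 37.7 CPM in the clones (1.34, SE 0.14), and did not pass with the libraries of each line summed (adjusted p 0.0634, edgeR). PCDHGB1 (2.40, SE 0.65) was at least 2-fold higher in all 4 differences without passing, with clone 2 at 19.4 and 16.5 CPM and clone 1 at 5.83 and 5.48 CPM. PCDHGB2 (1.47, SE 0.27) did not pass either. Transcripts of this cluster share their last exons, so the division of reads among its genes is uncertain. Only 1 of 15 alpha genes in the table was tested. Of the 26 protocadherins with a mean of at least 2 CPM, 7 were at least 2-fold higher and 1 at least 2-fold lower in all 4 differences, beside 0.437% and 0.243% of all genes at that level. The E2 libraries alone gave 7 and 1 as well, beside 0.679% and 0.518%.

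**Figure D3:**
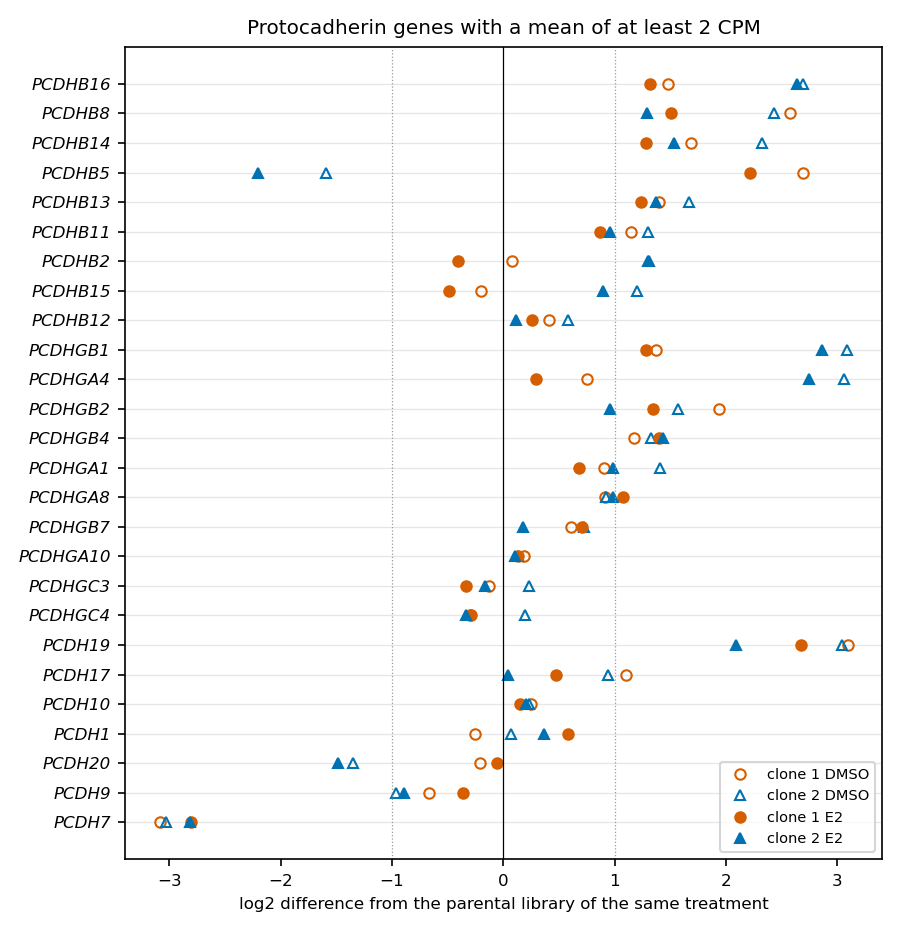
Log2 difference of each clone library from the parental library of the same treatment, for the 26 protocadherin genes averaging at least 2 CPM (beta cluster, gamma cluster, then others). Circles are clone 1 and triangles clone 2, open for DMSO and filled for E2, and dotted lines mark a 2-fold difference. PCDHB8, PCDHB13, PCDHB14, PCDHB16, PCDHGB1, PCDHGB4 and PCDH19 lie beyond 2-fold on the right in all 4, PCDH7 on the left, and PCDHB5 is split by clone.

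The called genes VIM, SPARC, STC1 and TGFBI fell and MXRA5 rose, which are described together here because 4 of them encode matrix or mesenchymal proteins, and not as members of a list. VIM, the intermediate filament protein vimentin of mesenchymal cells, had 203 counts over the 2 parental libraries (3.63 and 2.54 CPM) and 1 count over the 4 clone libraries. Scaled for depth the clones held 0.268% of the parental level, with an exact 95% interval of 0.00675% to 1.51% that covers counting error only. SPARC, a secreted protein that binds collagen, fell from 2.99 and 1.82 CPM to at most 0.410 CPM (-2.86, SE 0.36). STC1, the secreted hormone stanniocalcin, fell from 2.05 and 1.28 CPM to at most 0.0683 CPM (-5.01, SE 0.55). TGFBI, a matrix protein induced by TGF-beta, stood higher, at 12.4 and 8.52 CPM in the parental line, 2.74 and 1.78 CPM in clone 1 and 2.56 and 1.54 CPM in clone 2 (-2.29, SE 0.19). Its 4 differences were alike, between 2.16 and 2.42 in size. MXRA5, a matrix remodelling protein, went from 6.76 and 5.53 CPM to 34.5 and 17.3 CPM in clone 1 and 36.8 and 15.1 CPM in clone 2 (1.96, SE 0.23). Its direction was shared by other genes of the matrix and its receptors, LOXL4, SULF1 and ITGB8, chosen after their values were seen, which were at least 2-fold higher in all 4 differences without passing. COL3A1 and COL26A1 were at least 2-fold lower in all 4 without passing, and the called SPARC and TGFBI were lower too, so matrix genes had no shared direction.

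None of the 41 collagens and laminins tested was called, and their median of 0.58 came mainly from DMSO, where the clones' medians were 0.48 and 0.89, against 0.01 and 0.17 in E2. After the GC and length correction their median was 0.36. Of the 29 averaging at least 2 CPM, 12 were higher and 4 lower in all 4 differences, beside 17.3% and 17.2% of all genes. COL3A1 (-2.09, SE 0.38) and COL26A1 (-1.81, SE 0.35) were at least 2-fold lower in all 4 differences without passing. Of 8 stromal fibroblast markers 5 were tested and none was called. The median of those 5 was -1.16, with -0.94 and -0.99 in DMSO and -0.75 and -1.21 in E2, and 1 of them had a positive difference. The list's summed level was 59.0 and 87.4 CPM in the parental line and 49.1 to 75.3 CPM in the clones, no member was at 0 in every library, and COL1A1 made up most of it in each. Among smooth muscle markers ACTA2 was at 14.99 and 10.9 CPM in the parental line and 3.84 to 9.25 CPM in the clones (-1.05, SE 0.27). The 3 smooth muscle markers together ran from 5.14 to 11.0 CPM in the clones and stood at 16.6 and 13.1 CPM in the parental line. The part of other cells in these losses was not tested. ITGB8, an integrin subunit that binds latent TGF-beta, was at 99.9 and 98.6 CPM in the parental line and 201 to 308 CPM in the clones, just outside the threshold (1.33, SE 0.18, adjusted p 0.0521, edgeR). No matrix protease or inhibitor passed among 45 tested, beside 0.327% of all genes tested. ADAMTS18 (-1.26, SE 0.24) and ADAMTS7 (-1.85, SE 0.35) were lower in each clone under each treatment.

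Of the 7 tested genes of the HUSH complex and its partners 1 was called, against 0.327% of all genes tested. This short list was chosen with earlier results known, so the share is no sign of enrichment. FAM208A encodes TASOR, the scaffold of the HUSH complex, which represses transposable elements and other repeats through histone methylation. It stood at 20.4 and 22.8 CPM in the parental line, at 0.782 and 1.65 CPM in clone 1 and at 2.66 and 1.57 CPM in clone 2, and fell by 3.70 (SE 0.39). The 6 other tested members and partners of HUSH, such as PPHLN1 (-0.29, SE 0.17), were not called. KIAA1551, also known as RESF1, a factor that silences retroelements, rose from 96.9 and 122 CPM to between 219 and 278 CPM (1.14, SE 0.15). HENMT1, which methylates the ends of small RNAs that guard the germline against transposons, rose from 9.71 and 6.36 CPM to between 17.3 and 21.8 CPM (1.30, SE 0.17). Its adjusted p was 0.0543 with line as a random replicate block (limma-voom).

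Numbered zinc finger genes, many of which encode KRAB repressors directed at repeats, leaned upward by small amounts. Their median over 482 tested was 0.14, with 0.10 and 0.22 for the clones in DMSO and 0.13 and 0.15 in E2. Of the 448 with a mean of at least 2 CPM, 146 were higher and 19 lower in all 4 differences, beside the 17.3% and 17.2% of all genes. ZNF626 stood at 4.37 and 2.57 CPM in the parental line, 12.6 and 9.63 CPM in clone 1 and 12.7 and 11.4 CPM in clone 2 (1.77, SE 0.21). ZNF793 stood at 6.66 and 8.07 CPM, and at 17.8 and 22.8 CPM in clone 1 and 20.8 and 22.1 CPM in clone 2 (1.503, SE 0.15). These 2 of 482 were the called members, a share near the 0.327% of all genes tested, and neither passed with the libraries of each line summed (adjusted p 0.0674 and 0.0698, edgeR). In addition to them ZNF785, ZNF208, ZNF257, ZNF233 and ZNF717 were at least 2-fold higher in all 4 differences, and no member was 2-fold lower in all 4. Reads of close copies in this family may be divided wrongly between them. The median stayed at 0.14 after the GC and length correction.

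Among signalling genes, ID3 and ID2 fell. ID3 and ID2 encode proteins that pair with bHLH transcription factors and block their binding, and are known targets of BMP signalling. ID3 went from 22.8 and 12.1 CPM in the parental line to 7.31 and 3.22 CPM in clone 1 and 4.06 and 3.21 CPM in clone 2 (-1.96, SE 0.24). ID2 went from 18.9 and 12.6 CPM to 6.70 and 5.48 CPM in clone 1 and 5.50 and 5.88 CPM in clone 2 (-1.40, SE 0.18). ID2 lost its call with line as a random replicate block (adjusted p 0.0589, limma-voom), and both lost it with the libraries of each line summed (adjusted p 0.0674 for ID3 and 0.128 for ID2, edgeR). Their relative ID1 was lower in all 4 differences without passing (-0.63, SE 0.13), at 265 and 130 CPM against 81.4 to 173 CPM. The wider list of 45 TGF-beta and BMP genes tested had ID2 and ID3 as its called members, against 0.327% of all genes tested. Its median was 0.06, with 0.08 and 0.09 in DMSO and 0.02 and -0.01 in E2. SMAD3 was higher in each clone under each treatment (0.57, SE 0.17) without passing.

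LBH, a transcription cofactor induced by Wnt signalling, stood at 4.67 and 5.05 CPM in the parental line, 25.1 and 22.2 CPM in clone 1 and 32.0 and 19.4 CPM in clone 2 (2.32, SE 0.22). It was the called member of 14 Wnt target genes tested, against 0.327% of all genes tested, and their median was 0.49. With 1 call in a list chosen with earlier results known, that share is no sign of enrichment. The list's medians were 0.43 and 0.99 in DMSO and 0.11 and 0.33 in E2. LEF1 (1.14, SE 0.23) and NKD1 (1.10, SE 0.32) were higher in all 4 differences without passing. No Wnt ligand, receptor or antagonist was called among 32, beside 0.327% of all genes tested.

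MAPK4, an atypical MAP kinase related to ERK3, stood at 1.45 and 1.60 CPM in the parental line, 6.196 and 7.06 CPM in clone 1 and 6.04 and 6.18 CPM in clone 2 (2.06, SE 0.21), with an adjusted p of 0.0819 when the libraries of each line were summed (edgeR). It was the called gene among 13 MAP kinases tested, against 0.327% of all genes tested. That list too was chosen with earlier results known. The output genes of the ERK pathway, 19 tested, had a median of 0.06 (0.16 and -0.14 in DMSO, 0.13 and -0.10 in E2) and no call. DUSP6, a phosphatase that turns ERK off and a classic output of the pathway, was nonetheless at 141 and 143 CPM in the parental line and at 52.1 to 77.3 CPM in the clones (-1.13, SE 0.19, adjusted p 0.0987, edgeR). JUN was higher, at 26.0 to 38.0 CPM against 19.3 and 15.6 CPM (0.90, SE 0.15). Of the 14 members with a mean of at least 2 CPM, 6 were higher and 6 lower in all 4 differences, beside 17.3% and 17.2% of all genes.

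TCL1B, of the TCL1 family of AKT cofactors, went from 15.6 and 7.08 CPM to 3.43 and 1.37 CPM in clone 1 and 3.11 and 1.74 CPM in clone 2 (-2.22, SE 0.19). CDKN1A, the cell-cycle inhibitor p21, rose from 43.2 and 34.6 CPM to between 73.4 and 91.7 CPM (1.10, SE 0.12, adjusted p 0.0640 with the libraries of each line summed, edgeR). It was the called gene among 17 G1 cyclins and inhibitors, against 0.327% of all genes tested. A second inhibitor, CDKN1C, was at least 2-fold higher in all 4 differences (1.56, SE 0.28) without passing, and the cyclin gene CCND2 was lower (-0.97, SE 0.15). None of 25 mitosis genes passed. In all 4 differences 16 of them were lower and 0 higher, beside 17.2% and 17.3% of all genes. Their median was -0.41, and -0.31 after the GC and length correction. The clones' medians were -0.57 and -0.56 in DMSO and -0.32 and -0.27 in E2. CDC20, an activator of the anaphase-promoting complex, was at 310 and 239 CPM in the parental line and 155 to 190 CPM in the clones (-0.68, SE 0.12). AURKA, a spindle kinase, was at 109 and 83.2 CPM and at 58.6 to 69.0 CPM (-0.60, SE 0.11). DNA replication genes, 27 tested, had a median of -0.15 (-0.18 and -0.28 in DMSO, -0.09 and -0.06 in E2) and no call. That median was -0.06 after the GC and length correction.

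Enzymes were found in both directions. ALDH3A1 oxidises aldehydes and is induced by the aryl hydrocarbon receptor. It stood at 101 and 91.1 CPM in the parental line, 3.46 and 3.19 CPM in clone 1 and 7.24 and 6.59 CPM in clone 2 (-4.23, SE 0.34). Clone 2 held more of it than clone 1 in both treatments. It was the called member of 19 aldehyde dehydrogenases and of 9 genes of the aryl hydrocarbon receptor battery, against 0.327% of all genes tested. Both lists were chosen with earlier results known. These lists had medians of -0.08 and 0.00. NQO1, another gene of that battery, was lower in each difference (-0.71, SE 0.16) without passing. G0S2, an inhibitor of the triglyceride lipase ATGL, was higher in E2 than in DMSO in every line and fell in the clones. The parental line had 2.96 CPM with DMSO and 58.4 CPM with E2, against 1.03 and 9.08 CPM in clone 1 and 0.751 and 12.4 CPM in clone 2 (-2.15, SE 0.24).

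ENTPD2, an ectonucleotidase that degrades extracellular ATP, rose. It stood at 32.6 and 41.7 CPM in the parental line, 99.3 and 104 CPM in clone 1 and 143 and 129 CPM in clone 2 (1.68, SE 0.21). ARSJ, a sulfatase, stood at 12.2 and 11.5 CPM, and at 36.3 and 38.3 CPM in clone 1 and 41.2 and 30.6 CPM in clone 2 (1.62, SE 0.16). TMTC1, an O-mannosyltransferase of the endoplasmic reticulum that acts on cadherins, stood at 115 and 86.8 CPM in the parental line, 512 and 380 CPM in clone 1 and 549 and 265 CPM in clone 2 (2.04, SE 0.20). All 4 clone libraries lay above both parental ones for each of these genes. AGPAT2, an acyltransferase of phospholipid and triglyceride synthesis, rose by 1.09 (SE 0.14), from 73.8 and 84.0 CPM to between 141 and 208 CPM. None of 24 cholesterol synthesis genes was called, and their median was 0.16, with 0.13 and 0.10 in DMSO and 0.21 and 0.16 in E2. In all 4 differences 8 were higher and 0 lower, beside 17.3% and 17.2% of all genes. HMGCS1, which makes the precursor of mevalonate, was at 398 and 448 CPM in the parental line and 534 to 620 CPM in the clones (0.47, SE 0.15). The 4 tested metallothioneins, which bind zinc and copper, were lower in every difference, as were 17.2% of all genes, with no call. Their median was -0.83, with -0.84 and -1.16 in DMSO and -0.61 and -0.52 in E2, MT1X at -0.88 (SE 0.19) and MT2A at -0.68 (SE 0.13).

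Of the transporters and channels, 3 of 281 solute carriers and 2 of 100 ion channels were called, against 0.327% of all genes tested. SLC9A3, the sodium-proton exchanger NHE3 of intestinal and renal brush borders, had the largest rise of all called genes. It stood at 0.639 and 1.60 CPM in the parental line, 9.77 and 13.4 CPM in clone 1 and 21.8 and 18.6 CPM in clone 2 (3.85, SE 0.50, adjusted p 0.0466, edgeR). With line as a random replicate block it did not pass (adjusted p 0.100, limma-voom). SLC29A1, the nucleoside transporter ENT1, fell by 0.85 (SE 0.11), the smallest change called, from 161 and 108 CPM to between 57.0 and 93.9 CPM. SLC6A17, a synaptic vesicle transporter of neutral amino acids, fell by 2.02 (SE 0.27), from 2.49 and 4.06 CPM to between 0.444 and 1.16 CPM. Neither passed with that block, at adjusted p-values of 0.0693 for SLC29A1 and 0.0561 for SLC6A17 (limma-voom). Over the 281 solute carriers tested the median was 0.01, with 0.07 and 0.05 in DMSO and 0.00 and -0.02 in E2. SLC38A8 (-2.004, SE 0.28) and SLC24A2 (3.13, SE 0.67) were at least 2-fold apart in all 4 differences without passing. The 2 called ion channel genes fell. KCNE3, an accessory subunit of voltage-gated potassium channels in epithelia, went from 92.7 and 95.5 CPM to between 37.7 and 47.3 CPM (-1.21, SE 0.12). KCNJ3, an inwardly rectifying potassium channel opened by G proteins, went from 52.7 and 33.3 CPM to between 10.2 and 23.4 CPM (-1.35, SE 0.18, adjusted p 0.0503 with the block, limma-voom).

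**Figure D4:**
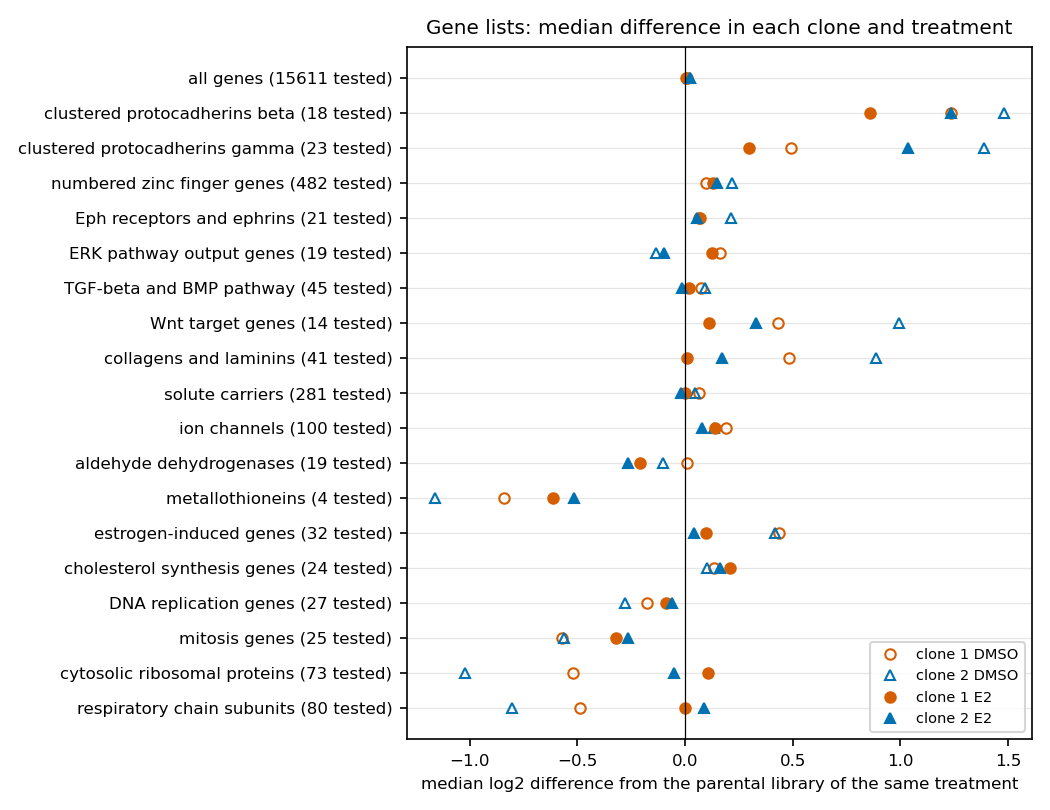
Median log2 difference of gene lists in each clone library against the parental library of the same treatment, with the number of genes tested beside each name. Circles are clone 1 and triangles clone 2, open for DMSO and filled for E2. The protocadherin clusters lie right of 0 in all 4, mitosis genes and metallothioneins left of 0 in all 4, and ribosomal proteins and respiratory chain subunits lie left of 0 by more than 0.4 in DMSO alone.

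Structural and contractile proteins were mixed. TNNT1, the slow skeletal troponin T, went from 32.1 and 18.7 CPM in the parental line to 5.53 and 3.50 CPM in clone 1 and 6.49 and 5.91 CPM in clone 2 (-2.21, SE 0.23). TNNI3, cardiac troponin I, is the next tested gene beside TNNT1 on the chromosome and fell with it, from 3.63 and 2.00 CPM to at most 0.444 CPM (-3.04, SE 0.33). TCL1B with TUNAR and EPHA5 with EPHA5-AS1 were also neighbours that both fell. The tubulin genes moved in opposite directions. TUBB4A, a neuronal beta tubulin, went from 4.91 and 5.64 CPM to 1.23 and 1.27 CPM in clone 1 and 1.71 and 1.57 CPM in clone 2 (-1.87, SE 0.24). TUBA8, an alpha tubulin, rose from 10.1 and 8.15 CPM to between 19.2 and 24.96 CPM (1.29, SE 0.14). MLPH, melanophilin, which links RAB27A on vesicles to a myosin motor, had 0.672 CPM with DMSO and 14.3 CPM with E2 in the parental line, 3.41 and 41.2 CPM in clone 1 and 4.10 and 51.0 CPM in clone 2 (1.96, SE 0.24, adjusted p 0.0819 with the libraries of each line summed, edgeR). Like G0S2 it was far higher in E2 in every line, and the clones were above the parental line within each treatment. NCALD, a neuronal calcium sensor, fell by 1.37 (SE 0.16), from 136 and 90.1 CPM to between 26.4 and 62.0 CPM. FAM171A1, a membrane protein, fell by 1.34 (SE 0.17, adjusted p 0.0543 with line as a random replicate block, limma-voom), and HDGFRP3, a relative of hepatoma-derived growth factor, fell by 1.17 (SE 0.14).

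Transcription factors outside the zinc fingers gave MAFA and SOX6. MAFA, a factor of insulin-producing cells, stood at 3.36 and 5.83 CPM in the parental line, 9.43 and 14.9 CPM in clone 1 and 9.05 and 17.9 CPM in clone 2 (1.47, SE 0.18). MAFA had an adjusted p of 0.145 when the libraries of each line were summed (edgeR). SOX6, a regulator of cartilage and muscle fate, rose from 15.7 and 8.74 CPM to between 19.5 and 39.4 CPM (1.28, SE 0.15). It was the called member of 42 SOX and FOX genes tested, against 0.327% of all genes tested. Neither 31 HOX genes nor 62 other homeobox genes gave a call, beside that same share. TUNAR, a long noncoding RNA of neural and pluripotent cells, went from 8.17 and 4.60 CPM to 0.558 and 0.411 CPM in clone 1 and 0.341 and 0.171 CPM in clone 2 (-4.07, SE 0.35). LOC442497, an uncharacterised entry, stood at 0.538 and 1.15 CPM in the parental line and at 4.86 and 5.90 CPM in clone 1 and 4.85 and 4.95 CPM in clone 2 (2.64, SE 0.31). It did not pass with line as a random replicate block (adjusted p 0.0503, limma-voom).

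RPL9 and RPL39L, ribosomal proteins of the large subunit, fell, while the median of their family depended on the treatment. RPL9 stood at 1412 and 706 CPM in the parental line, 343 and 300 CPM in clone 1 and 403 and 227 CPM in clone 2 (-1.68, SE 0.19). RPL39L, a copy of RPL39 used mainly in the testis, went from 3.26 and 1.92 CPM to at most 0.195 CPM (-4.05, SE 0.36). Both have close copies in the genome, so their counts are uncertain. Over the 73 ribosomal protein genes tested, the medians were -0.52 and -1.02 for the clones in DMSO but 0.11 and -0.05 in E2. The 80 respiratory chain subunits gave -0.49 and -0.80 in DMSO and 0.00 and 0.09 in E2, with no call. These shifts accompany the GC and length trends of the DMSO differences. Under the GC and length correction the log2 differences were -1.53 for RPL9 and -3.84 for RPL39L, and both kept their calls. Beyond that correction, the part of these shifts in the differences of RPL9 and RPL39L was not tested. RPL9 was at least 2-fold lower in the E2 differences too.

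Neither ESR1 nor any member of the list of estrogen-induced genes was among the 51 calls. G0S2 and MLPH, called and far higher in E2 than in DMSO in every line, are not on that list. ESR1, the estrogen receptor, was at 199 and 154 CPM in the parental line and 149 to 276 CPM in the clones (0.29, SE 0.17). Of 32 estrogen-induced genes tested none passed, but only 0.327% of all genes tested did, so a list of this size would mostly hold no call. Of the 27 averaging at least 2 CPM, 12 were higher and 4 lower in all 4 differences, beside 17.3% and 17.2% of all genes. The list's median was 0.18, with 0.43 and 0.42 in DMSO and 0.10 and 0.04 in E2. PGR, the progesterone receptor, stood at 1.61 and 34.8 CPM in the parental line, 7.31 and 71.5 CPM in clone 1 and 2.66 and 62.7 CPM in clone 2 (1.22, SE 0.39, adjusted p 0.332, edgeR). PGR did pass in DESeq2 (adjusted p 0.0259), and its log2 difference was 1.47 without both libraries of clone 2. GREB1 was likewise above the parental line in each treatment (0.55, SE 0.17). EGR3, an early response factor, was at 0.437 and 3.58 CPM in the parental line and reached 18.5 CPM in clone 2 in E2 (2.00, SE 0.39). Mucins, 10 tested, had a median of 1.22 and no call, with 1.34 and 2.35 in DMSO and 0.40 and 1.03 in E2. After the GC and length correction the median was 0.87. MUC5B, a secreted mucin, was at 0.672 and 20.8 CPM in the parental line, 6.08 and 50.1 CPM in clone 1 and 6.39 and 89.3 CPM in clone 2 (2.22, SE 0.39, adjusted p 0.0997, edgeR).

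Whether the knockout difference depended on treatment was tested as an interaction of genotype and treatment. No gene passed, 0 of 15611 (0%), by the F test in edgeR with Benjamini-Hochberg adjustment, and 1190 had an unadjusted p below 0.05. DESeq2 gave 27 and limma-voom 0. With line as a fixed replicate block, which pairs the 2 treatments of each line and leaves 1 residual degree of freedom, 2470 genes passed (15.8%). Of the 51 genes called for the knockout, SLC9A3, MXRA5 and PCDH19 were among these 2470. Each was higher in the clones under both treatments and less so in E2. The interaction sets the clones against a single parental library in each treatment.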

How the data were processed

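Poly(A)-selected RNA-seq libraries had been made with a stranded kit, per the labels' protocols. The submitters' processing notes name HISAT2, SAMtools, Subread, DESeq2 and the build hg19, with no role or version. Whether counting used strand is not given in the sources used here. The authors deposited a raw count per gene symbol and library. They also deposited a normalized signal, which equalled the count divided by a recomputed DESeq2 size factor and was used here only for the level of ETV4. Column names write DMOS and ER, read as DMSO and E2. Each line has 1 library per treatment.

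Counts were tested in R 4.3.3 with edgeR 4.0.16 (TMM scaling, filterByExpr on the 4 groups, a model of treatment and genotype, quasi-likelihood test, Benjamini-Hochberg adjustment at 0.05). SEs were recovered from each log2 coefficient and its F statistic. Differences between single libraries used log2 CPM with a prior count of 2 and genes averaging at least 2 CPM. In each direction, values in every library are given for up to 15 called genes, those with the largest differences among genes averaging at least 2 CPM with 1 sign in all 4 differences. Other called genes, the PEA3 factors, ESR1, PGR, GREB1 and up to 2 uncalled members per list (of 58) were also named. Values of 1 called gene are not reported here. The genes, lists and tests were chosen with earlier results of these data known.

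Libraries of a line share a clone number in the labels. Across treatments, the clone 1 minus clone 2 differences correlated at 0.626 over all genes tested. As a replicate block, line was random in limma 3.58.1 for the knockout effect (duplicateCorrelation, within-line correlation 0.113) and fixed for the interaction. Other alternatives were median-ratio scaling, other filters, DESeq2 1.42.0, limma-voom, libraries summed per line and each library or clone left out. The GC and length correction (GENCODE 29 transcripts, 93.6% of tested genes) and the counts in 1 treatment alone were chosen after seeing the data. Neighbouring genes were read from RefSeq's gene order.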

Additional observations from a re-analysis of the deposited data

Results flagged for a closer look

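SLC9A3, MXRA5 and PCDH19 had a knockout difference that itself differed between DMSO and E2 when the libraries of each line were paired. With line as a fixed replicate block the difference in E2 minus that in DMSO was -1.22 for SLC9A3, -0.85 for MXRA5 and -0.69 for PCDH19 on the log2 scale. Their adjusted p-values were 0.0252, 0.00874 and 0.0345 by the quasi-likelihood F test in edgeR, in a fit with 1 residual degree of freedom that called 2470 of 15611 genes. Without the block none of these genes passed. Each was higher in both clones under both treatments, by less in E2. The interaction rests on 1 parental library in each treatment, and the parental DMSO library stood apart.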

How the results depend on the processing

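The number of genes called for the knockout was 51, and it was 48 to 57 under median-ratio scaling, either other filter on low counts and limma-voom. It was 46 with line as a random replicate block (42 of them shared) and 37 with libraries summed per line (27 shared). DESeq2 gave 451, including all 51, the fit without a treatment term 15, and the GC and length correction 118, of which 49 were shared. Leaving out 1 library or clone at a time gave 1 to 996 genes. The causes of these shifts were not tested. For 14 genes the call held in every fit of all libraries in which the gene was tested. Among them were VIM, EPHA5, EPHA5-AS1, GJA1, ALDH3A1, TUNAR, RPL39L, FAM208A, ETV4, KCNE3, ARSJ, LBH and PCDH19. VIM, EPHA5-AS1, TUNAR and RPL39L were too low to be tested under the stricter low-count filter. Their calls thus held in 8 alternative fits of all libraries, against 9 for EPHA5 and GJA1. The interaction count of 0 became 27 in DESeq2, 0 to 38 with 1 library left out, and 2470 with the replicate block. Among the 51 genes the random block changed no call beyond the 9 given with it, and it added 4 others. The 84 genes at least 2-fold apart in all 4 differences became 268 at 1.5-fold, 15 at 4-fold, 148 in E2 alone and 338 in DMSO alone, and 223 to 246 with 1 clone left out. ETV1 changed sign from 0.076 to -0.041 in limma-voom, with and without the block, and to -0.0079 with the GC and length correction, and ran from -0.67 to 0.55 with a library or clone left out. With 1 parental library per treatment, the parental line is assumed to vary like the clones.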

Other observations

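A total of 45 genes were at least 2-fold apart in 1 direction in all 4 differences without passing the test, and the largest were split by clone. WDR72, a gene of enamel formation, stood at 0.134 and 0.160 CPM in the parental line, 18.1 and 12.8 CPM in clone 1 and 2.01 and 1.84 CPM in clone 2. PLXDC2, a membrane receptor, stood at 32.8 and 48.4 CPM, and at 1.87 and 5.38 CPM in clone 1 and 0.102 and 0.137 CPM in clone 2. Both differed from the parental line in 1 direction, but the clones differed from each other by more than 2-fold. Over the 12367 genes averaging at least 2 CPM, 334 in DMSO and 304 in E2 were at least 2-fold apart between the clones.

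Other genes of this kind were chosen after their values were seen. SULF1, a sulfatase that edits heparan sulfate, stood at 0.437 and 0.454 CPM in the parental line, 4.52 and 3.43 CPM in clone 1 and 2.90 and 2.22 CPM in clone 2 (2.84, SE 0.39). MAGEC1, a cancer-testis antigen, stood at 1.88 and 3.50 CPM, and at 28.8 and 36.9 CPM in clone 1 and 15.6 and 17.8 CPM in clone 2 (3.23, SE 0.44). Both had an adjusted p of 0.0521 by the quasi-likelihood F test in edgeR. LOXL4, a lysyl oxidase that crosslinks collagen, stood at 11.2 and 28.6 CPM in the parental line and 49.5 to 104 CPM in the clones (2.07, SE 0.36). AMIGO2, an adhesion protein of neurons, stood at 31.0 and 20.2 CPM and at 5.91 to 13.1 CPM in the clones (-1.40, SE 0.21).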
